A study of Homo sapiens with 4 samples.

Results

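The miR-200 family, miR-205 and miR-203 are miRNAs of epithelial cells, and their rows were followed here in H661 cells, a human cell line established from a large cell carcinoma of the lung. Members were all rows of the deposited count table whose name, without arm, is miR-200a, miR-200b, miR-200c, miR-141, miR-429, miR-205, miR-203a or miR-203b. Of these 8 names, 4 were present, each with 1 arm, so that 4 of 826 rows were members: hsa-miR-200c-3p, hsa-miR-200b-3p, hsa-miR-203a-3p and hsa-miR-205-5p. The table lists no row for miR-200a, miR-141, miR-429 or miR-203b, and none for the opposite arms of the 4 names present. Small RNA libraries came from cells given the solvent dimethyl sulfoxide (DMSO; 2 libraries) or 2.5 µM entinostat, an inhibitor of class I histone deacetylases (2 libraries), for 8 h. All libraries were of the same unmodified line in RPMI1640 medium with 10% fetal bovine serum, and no label says whether the replicates of a group were separate cultures. The p-values below therefore speak only of how far these libraries vary, and that variation may be technical.

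A miRNA finds its targets mainly through its seed, the bases near its 5′ end that pair with the messenger RNA. The miR-200 family and miR-205 repress ZEB1 and ZEB2, transcription factors that switch off epithelial genes such as CDH1 (E-cadherin), and ZEB1 and ZEB2 in turn repress the miR-200 genes. In this loop, known from epithelial-mesenchymal transition (EMT), high miR-200 marks epithelial cells and low miR-200 mesenchymal ones. miR-205 is typical of basal and squamous epithelium, and miR-203 is known for restraining TP63 as keratinocytes differentiate.

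The mature sequences of the 4 listed members and of the miR-200 relatives not listed are shown from RefSeq (GRCh38.p14), 5′ to 3′ with the seed, bases 2 to 8, in capitals, because the seed divides the family and because some relatives differ by few bases.
hsa-miR-200c-3p: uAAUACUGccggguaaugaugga
hsa-miR-200b-3p: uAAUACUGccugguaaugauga
hsa-miR-429: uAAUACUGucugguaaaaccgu
hsa-miR-200a-3p: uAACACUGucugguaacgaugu
hsa-miR-141-3p: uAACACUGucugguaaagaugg
hsa-miR-205-5p: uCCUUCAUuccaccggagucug
hsa-miR-203a-3p: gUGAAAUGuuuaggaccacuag

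The listed miR-200 members, miR-200b-3p and miR-200c-3p, carried the same seed, AAUACUG, which RefSeq gives to miR-429 as well. The other seed of the family, AACACUG, belongs to miR-200a-3p and miR-141-3p, and neither was listed. Counted from 1 at the 5′ end, miR-200c-3p differs from miR-200b-3p at 2 of 22 compared positions (G11U and G22A, with the base of miR-200c-3p first) and is 23 bases long against 22. How the authors assigned reads that fit more than 1 name is not given in the sources used here, so the split between these 2 rows is uncertain. No other human miRNA in the RefSeq table has the seed of miR-205-5p or that of miR-203a-3p. RefSeq gave a sequence for 729 of the 826 listed names, and the seeds of the rest were not compared.

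The hairpins lie at 4 loci (GRCh38, GENCODE release 29 annotation), which may differ from what the authors used. MIR200C (chromosome 12, 6963699 to 6963766, plus strand) and MIR141 (6964097 to 6964191) lie 493 bases from end to end. Each hairpin is in intronic sequence of MIR200CHG, their long non-coding host gene. The product of the first was the most abundant member, and that of the second was not listed. MIR200B (chromosome 1, 1167104 to 1167198, plus strand), MIR200A and MIR429 span 1984 bases, and none of these hairpins overlaps another annotated gene. Only MIR200B had a listed product. MIR205 (chromosome 1, 209432133 to 209432242, plus strand) overlaps an exon of its host gene MIR205HG. MIR203A (chromosome 14, 104117405 to 104117514, plus strand) and MIR203B (104117418 to 104117503, minus strand) overlap over 86 bases on opposite strands, so that miR-203a-3p and miR-203b-5p are reverse complements over 21 bases.

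Levels are counts per 1000000 counts (CPM) that a library held in the 401 miRNAs kept for testing. TMM scaling (edgeR's trimmed mean of M-values) was applied and moved no library by over 1%. Library totals over all rows ran from 547875 to 938559 counts. On this scale 1 count was worth 1.07 and 1.78 CPM in the DMSO libraries, against 1.84 and 1.32 CPM under entinostat. At a 1-sided 95% limit, a count of 0 allows up to 3 counts. This is 3.21 and 5.34 CPM in DMSO libraries, and 5.52 and 3.95 CPM under entinostat. No value in the whole table is a 1, and no row is 0 throughout. A listed 0 may therefore stand for 0 or 1 reads, and with 1 read the limits would be 5.08, 8.45, 8.73 and 6.25 CPM in the same order. A row missing from such a table is not shown to be at 0, and no limit is given for one. All intervals per library are exact Poisson 95% intervals bounded on both sides and, like the limits, cover counting error only.

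All members were rare in H661. Their counts summed to 53 and 23 with DMSO and to 42 and 45 with entinostat, 163 of 2801023 counts in all. As a share of a library, that was 0.00565% (exact Clopper-Pearson 95% interval 0.00423 to 0.00739%) and 0.00410% (0.00260 to 0.00615%) with DMSO, and 0.00767% (0.00553 to 0.0104%) and 0.00598% (0.00436 to 0.00800%) with entinostat. miR-200c-3p gave 103 of the 163 counts (63.2%), miR-203a-3p 42, miR-205-5p 15 and miR-200b-3p 3. By mean level over the 4 libraries, 314 of the 826 rows lay above miR-200c-3p, 394 above miR-203a-3p, 484 above miR-205-5p and 716 above miR-200b-3p. In bulk RNA a low level in every cell and a higher level in few cells cannot be told apart.

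**Figure D1:**
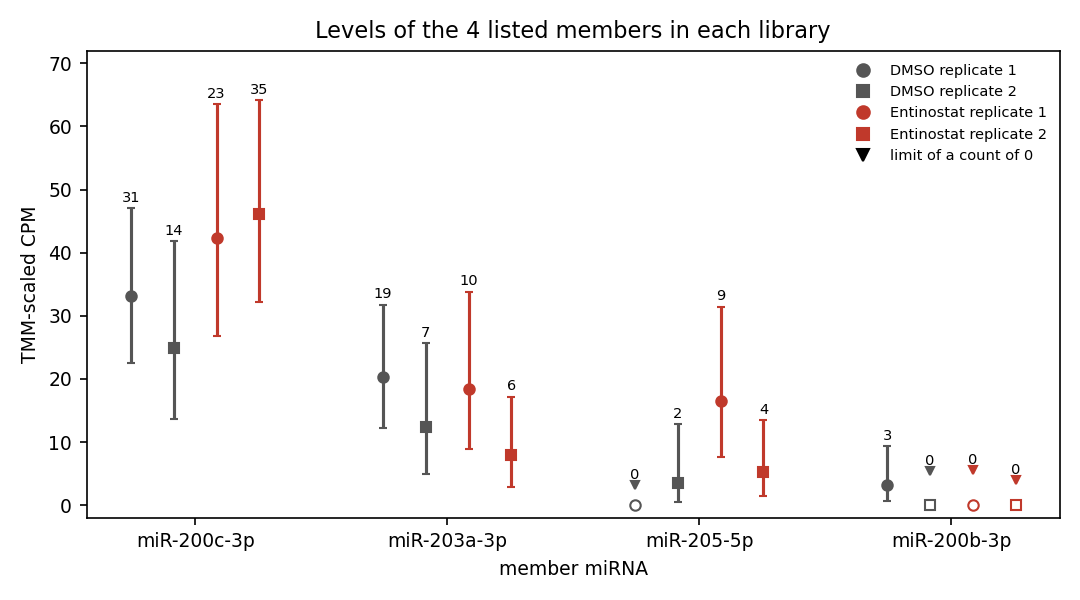
TMM-scaled CPM of the 4 members (x axis) in each library, with exact Poisson 95% intervals as bars and the raw count above each point. Open symbols at 0 are counts of 0, and triangles mark the limit that 3 counts give. For miR-200c-3p both entinostat points, at 42.3 and 46.1 CPM, lie above both DMSO points, at 33.2 and 24.9 CPM, while the bars overlap.

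miR-200c-3p, the listed miR-200 member with the most counts, was higher relative to library size in both entinostat libraries. The difference did not pass the test. Its DMSO libraries held 31 and 14 counts and its entinostat libraries 23 and 35, which is 33.2 and 24.9 CPM against 42.3 and 46.1 CPM. The groups did not overlap in CPM, whereas the raw counts did, since the library with 31 counts is the deepest. The means were 29.1 ± 5.83 CPM (SD, n = 2) under DMSO and 44.2 ± 2.69 CPM under entinostat. The fold was 1.49 with a 95% interval of 0.914 to 2.42 (edgeR quasi-likelihood test, adjusted p = 0.595), so the interval holds both no change and a doubling. The counting intervals of single libraries overlapped between the groups: the highest DMSO library reached from 22.5 to 47.1 CPM and the lowest entinostat library from 26.8 to 63.5 CPM.

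Of the 401 miRNAs tested, 0 were called at an adjusted p under 0.05 (0% of the tested rows), and 27 had an unadjusted p under 0.05 by the same test. By unadjusted p (0.0974), miR-200c-3p took place 60 of 401. Both entinostat libraries lay above both DMSO libraries in 83 of the tested miRNAs, 20.7%, so this order alone is common among them. Its standard error, 0.31 on the log2 scale, was larger than that of 75.3% of the tested miRNAs. Without DMSO replicate 1 the log2 fold change of miR-200c-3p was 0.83, and without DMSO replicate 2 it was 0.41, against 0.57 with all libraries.

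miR-200b-3p, from the chromosome 1 cluster, had 3 counts in DMSO replicate 1 and 0 in the other 3 libraries. The 3 counts are 3.21 CPM (interval 0.662 to 9.38 CPM), inside the limit of a count of 0 in DMSO replicate 2 and in both entinostat libraries. A difference between treatments was not detectable at this depth. With miR-200b-3p and miR-200c-3p summed by their shared seed, the counts were 34 and 14 with DMSO and 23 and 35 with entinostat, or 36.4 and 24.9 CPM against 42.3 and 46.1 CPM. The log2 fold change of this sum was 0.49 with a 95% interval of -0.23 to 1.20 (edgeR adjusted p = 0.641).

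The other member with enough counts to test was miR-203a-3p, and its groups overlapped. The DMSO libraries held 19 and 7 counts of it and the entinostat libraries 10 and 6, which is 20.3 and 12.5 CPM against 18.4 and 7.91 CPM. The entinostat libraries were thus farther apart from each other than the group means, 16.4 ± 5.56 and 13.2 ± 7.42 CPM (SD, n = 2). The fold was 0.729 with a 95% interval of 0.295 to 1.80 (edgeR adjusted p = 0.832), a range that holds changes of over 1.5-fold in either direction. Its direction rested on single libraries: the log2 fold change was -0.46 with all 4, -0.000117 without DMSO replicate 1, -1.10 without Entinostat replicate 1 and 0.10 without Entinostat replicate 2.

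**Figure D2:**
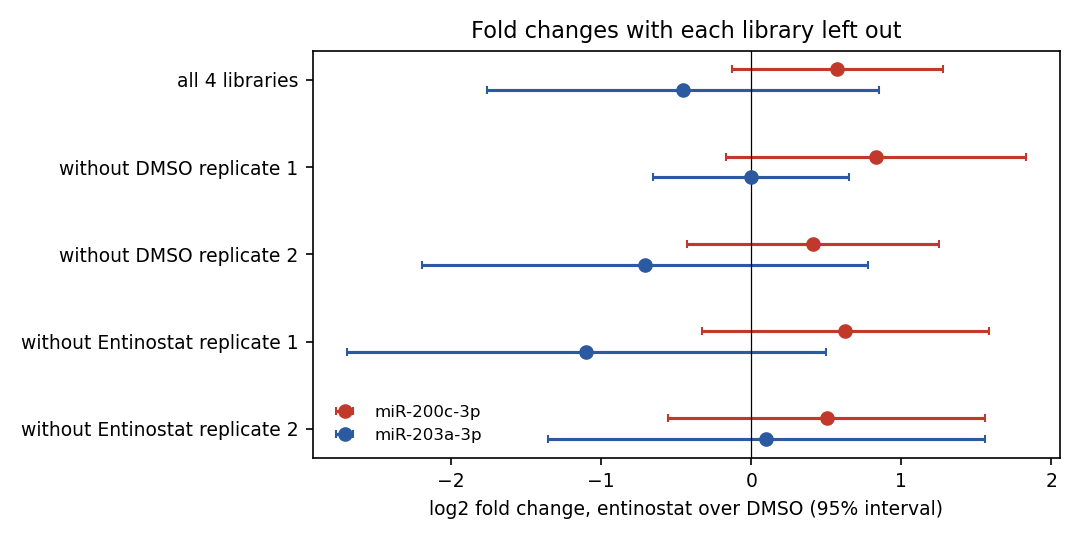
Log2 fold change of miR-200c-3p (red) and miR-203a-3p (blue), entinostat over DMSO, with all 4 libraries and with each left out; points are edgeR estimates and bars their 95% intervals. With a library left out, 1 group has a single library, which is assumed to vary like the 2 of the other group. The miR-200c-3p points lie between 0.41 and 0.83, the miR-203a-3p points between -1.10 and 0.10, and every bar crosses 0.

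Among the 3 members counted in both groups, the ratio farthest from 1 was that of miR-205-5p, on 15 counts in all. It was counted 0 and 2 times under DMSO and 9 and 4 times under entinostat, which is 0 and 3.56 CPM against 16.6 and 5.27 CPM. Both entinostat libraries lay above both DMSO libraries, as they did in 123 of all 826 listed rows (14.9%). The pooled level was 1.34 CPM with DMSO (2 counts, exact Poisson 95% interval 0.162 to 4.83 CPM) and 9.99 CPM with entinostat (13 counts, 5.32 to 17.1 CPM). Their ratio was 7.47 with a counting interval of 1.69 to 68.2, which leaves out the spread between replicates. That spread was wide, since the means were 1.78 ± 2.52 and 10.9 ± 7.99 CPM (SD, n = 2).

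Too few counts kept miR-205-5p out of the tested rows. An exact two-sided permutation test over the 4 libraries gave p = 0.333 for the difference of means, the smallest p that 2 libraries against 2 can give. When the low-count filter was dropped, its log2 fold change was 2.74 with a 95% interval of -0.00127 to 5.49 (edgeR unadjusted p = 0.0501, adjusted p = 0.861). The pooled ratio was 2.80 without DMSO replicate 1 and 3.94 without Entinostat replicate 1, whose 9 counts are the most of any library. Without Entinostat replicate 2 it was 12.4. Without DMSO replicate 2 the DMSO group is at 0, and the entinostat level was 3.11 times that of a floor of 3 counts. This value is no lower limit, since it leaves out the counting error of the entinostat counts and a listed 0 may stand for 1 read. With all 4 libraries and 1 count in place of the listed 0, the pooled ratio was 4.98. In DMSO replicate 2 the interval of miR-205-5p reached 12.9 CPM, above the 5.27 CPM of Entinostat replicate 2.

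The order of the members was the same at the top in all 4 libraries, with miR-200c-3p first. In DMSO replicate 1 miR-203a-3p came next, then miR-200b-3p, with miR-205-5p at 0. In the other libraries miR-203a-3p was followed by miR-205-5p and miR-200b-3p was at 0. The counting intervals of miR-200c-3p and miR-203a-3p overlapped in 3 of the 4 libraries and were apart in Entinostat replicate 2, at 32.1 to 64.2 CPM and 2.90 to 17.2 CPM. Some neighbours lower in the order overlapped, as with the 10 counts of miR-203a-3p and the 9 of miR-205-5p in Entinostat replicate 1. Others were apart, as in DMSO replicate 1, with miR-203a-3p at 12.2 to 31.8 CPM and miR-200b-3p at 0.662 to 9.38 CPM. These are levels of different sequences of nearly equal length, and recovery in small RNA libraries can differ between sequences.

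Summed over the members, the level was 56.7 and 41.0 CPM with DMSO and 77.3 and 59.3 CPM with entinostat. The means, 48.8 ± 11.1 and 68.3 ± 12.7 CPM (SD, n = 2), stood at a log2 ratio of 0.48, and the nearest libraries of the 2 groups were at 56.7 and 59.3 CPM. Without miR-200c-3p the log2 ratio was 0.28. For the sum of all members it ran from 0.27 to 0.74 with 1 library left out. No test was made on this sum.

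**Figure D3:**
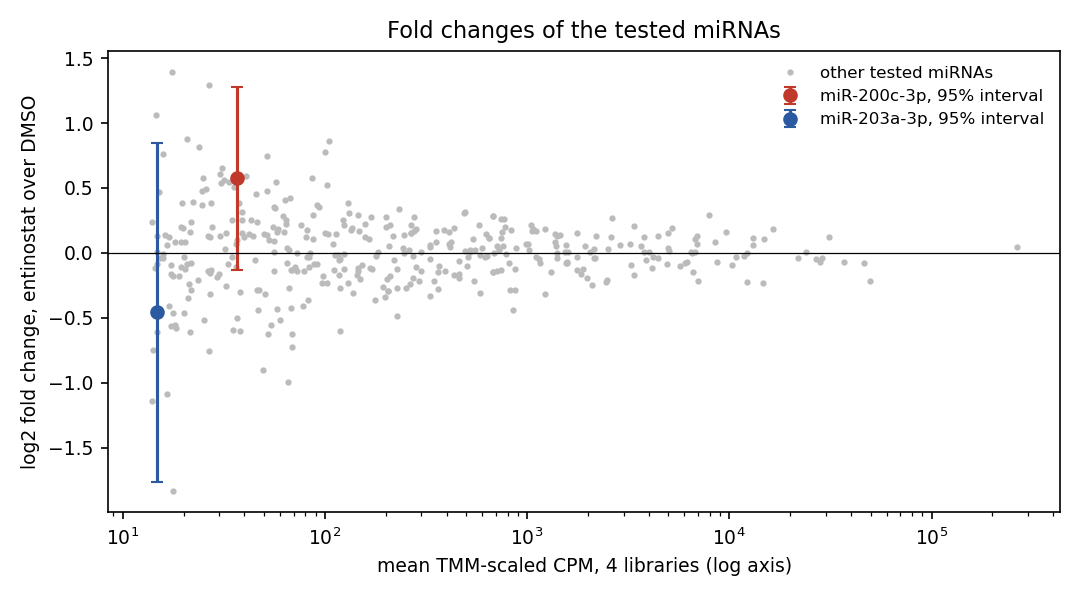
Log2 fold change (y axis, entinostat over DMSO) against mean TMM-scaled CPM over the 4 libraries (x axis, log scale) for the 401 tested miRNAs, with miR-200c-3p and miR-203a-3p and their 95% intervals. Both members lie in the left, low-level part of the plot, where the other points scatter most, and both intervals cross 0.

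Other miRNAs tied to epithelial cells had a far higher summed level than the members, though single rows such as miR-375 (18 and 9 counts under DMSO, 8 and 17 under entinostat) lay below miR-200c-3p. Of 13 such names 11 were listed, in 15 rows, and their summed level was 9868 and 10257 CPM with DMSO and 10057 and 10142 CPM with entinostat. Most of it came from miR-182-5p and miR-183-5p of the sensory and epithelial miR-183 cluster. The level of miR-182-5p was 4916 ± 245.2 CPM (SD, n = 2) in DMSO libraries and 5046 ± 63.6 CPM in entinostat libraries. Of the 10 tested rows, 6 lay above 0 and 4 below, with 0 called and a median log2 fold change of 0.06. Over all 401 tested miRNAs, 208 lay above 0 and 193 below, with a median of 0.00466. In the epithelial list the tested row of lowest p was miR-34c-5p, known from multiciliated cells (log2 fold change 0.37, edgeR adjusted p = 0.605). Next came miR-194-5p, known from gut epithelium (0.35, edgeR adjusted p = 0.640). Among the rest, miR-944, whose hairpin lies in TP63, had 0 counts in 3 libraries and 2 in Entinostat replicate 1.

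Mesenchymal and EMT-linked miRNAs were also followed beside the members. Of 8 mesenchymal names 7 were listed, in 13 rows summing to 12470 and 12832 CPM with DMSO and 12748 and 12613 CPM with entinostat. The bulk of it was miR-221-3p, miR-222-3p and miR-10b-5p, while the stromal miR-199a and miR-199b rows had at most 4 counts in any library and miR-214 was not listed. Of the 7 tested rows, 4 lay above 0 and 3 below (median log2 fold change 0.15), beside 208 and 193 of all tested miRNAs, and 0 were called. The miRNA of lowest p among them, miR-145-5p, had 11 and 4 counts in DMSO libraries and 9 and 26 under entinostat (log2 fold change 1.40, edgeR adjusted p = 0.595). The EMT-linked list was drawn up around ZEB1, SNAI1 and the TGF-beta pathway. It had 9 of 10 tested rows above 0 and 1 below (median 0.18), with 0 called. Beside it stand the same 208 above and 193 below of all 401. The list was not divided by whether a miRNA restrains or promotes EMT, so the 9 of 10 give no direction of EMT. Its most abundant rows were miR-30a-5p (log2 fold change 0.13, edgeR adjusted p = 0.595) and miR-21-5p (0.19, edgeR adjusted p = 0.635), and those of lowest p were miR-155-5p (0.54) and miR-9-5p (0.18), both at an edgeR adjusted p of 0.595. Of 6 blood names 2 were listed: miR-486-5p at 224.2 ± 9.80 and 214.5 ± 37.8 CPM (SD, n = 2), and miR-150-5p with at most 3 counts. The erythroid miR-451a and miR-144 and the leukocyte miR-142 and miR-223 had no row.

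**Figure D4:**
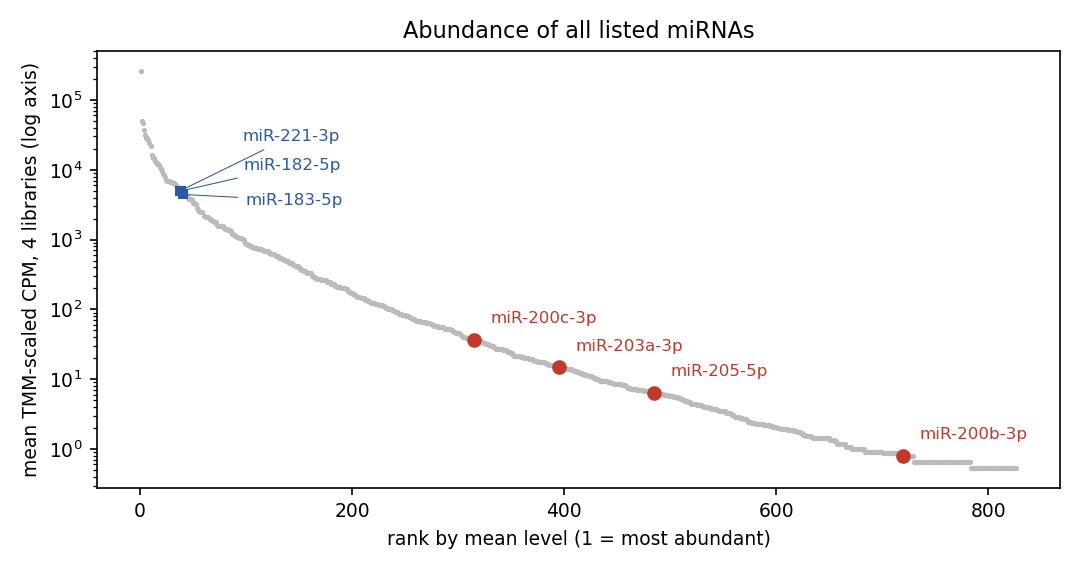
Mean TMM-scaled CPM over the 4 libraries (y axis, log scale) of all 826 listed miRNAs by rank (x axis), with the 4 members in red and 3 abundant miRNAs of the epithelial and mesenchymal lists in blue. The members lie below 314, 394, 484 and 716 other miRNAs.

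The miRNAs most like miR-200c-3p in level across the 4 libraries, by the root mean square difference of log2 CPM among 399 other tested miRNAs, were miR-4421 (0.17), miR-483-3p (0.25) and miR-363-5p (0.25). The counts of miR-4421 were 32 and 17 with DMSO and 27 and 37 with entinostat, with a log2 fold change of 0.59 (edgeR adjusted p = 0.595). For miR-203a-3p the nearest were miR-4728-3p (0.10), miR-98-5p (0.18) and miR-4741 (0.19). A missing partner arm was also looked for in 102 other rows with a 5p or 3p suffix and 0.5 to 2 times the counts of miR-200c-3p. The same name with the other suffix was listed for 66 and not for 36. Names were matched exactly, so an arm listed under a copy number counts as not listed, and 36 may be too high.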

How the data were processed

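The 4 H661 libraries were grouped by treatment and numbered by the sample titles. The authors deposited raw counts, 1 whole number for each mature miRNA and library. Per the labels' protocols, TRIzol RNA (1 µg) went into New England Biolabs small RNA reagents; no molecular identifier is named. The submitters' processing notes name bcl2fastq 2.18. No aligner, counting tool, miRNA annotation or build is given in the sources used here. The CPM table was not used.

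Rows were kept by filterByExpr of edgeR 4.0.16 (minimum count 10, minimum total 15), leaving 401 tested and 425 not tested. Counts were TMM-scaled and tested across all kept miRNAs with edgeR's quasi-likelihood test in R 4.3.3, treatment being the only term; calls needed a Benjamini-Hochberg adjusted p under 0.05. The 95% intervals of fold changes come from the fitted standard error. Levels of rows not tested use the same scaling. The test was also run on simulated data with 200 changed rows and a biological coefficient of variation of 8.05% in every row. That run does not speak for rows that vary more. Alternatives used other scalings and filters, DESeq2 1.42.0, limma 3.58.1 (voom), a likelihood ratio test, replicate blocks and left-out libraries. The rest was done with SciPy 1.17.1 in Python 3.11.15.

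The members and lists were chosen with earlier results of these data known. Every member was named. Of each other list, the 2 rows of highest level and the 2 tested rows of lowest p were named. For each tested member, the 3 miRNAs nearest in level were named. A few further rows (miR-10b-5p, miR-143-3p, miR-375, miR-944, miR-199a, miR-199b) were named after their values were seen.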

Additional observations from a re-analysis of the deposited data

How the results depend on the processing

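The count of 0 called miRNAs held in 12 of 14 alternatives; the edgeR likelihood ratio test called 4, and leaving out 1 library gave 0 to 6, the 6 without Entinostat replicate 1. Such fits leave 1 group with a single library and take the spread from the 2 libraries of the other group, assuming that the lone library varies alike. No member was called in any of them. For miR-200c-3p the log2 fold change stayed above 0 in all 15 alternatives (0.41 to 0.83; adjusted p 0.423 to 0.999), with 0.70 under upper quartile factors, which moved the median of all tested miRNAs from 0.00466 to 0.12. For miR-203a-3p it ran from -1.10 to 0.10 with 1 library left out. With replicate number as a block, 0 miRNAs were called, and the log2 fold changes were 0.59 for miR-200c-3p and -0.33 for miR-203a-3p. Deviations of same-numbered libraries correlated at -0.12 over 401 miRNAs; a block with crossed numbers, added after seeing the data, also called 0. The other alternatives added then were the summed miR-200b-3p and miR-200c-3p row and 1 count in place of 0. Depth limits every member: miR-200b-3p and miR-205-5p rest on 3 and 15 counts.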

Other observations

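Values of 2 were more frequent than values of 3 in each library, while values of 1 were absent. A count of 2 was listed for 100 and 83 rows with DMSO and for 85 and 113 rows with entinostat, and a count of 3 for 39 and 29 rows and for 30 and 39 rows. The value of 2 for miR-205-5p in DMSO replicate 2 is one of these. How the lowest counts were made is not given in the sources used here, and its part in the values of miR-205-5p and miR-200b-3p was not tested.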
